A study of Mus musculus with 6 samples.

Results

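Levels of 8 genes of complement, the acute-phase response and mucosal defence were followed: C3, Cfb, Saa1, Saa3, Lbp, Hp, Lcn2 and Pigr. They were found by the gene name that the scanner files give each probe. The 8 genes were represented by 10 probes among the 41174 on the array, C3 and Saa1 having 2 probes each. All 10 probes passed the filter on dim probes, which asked for a signal well above background on at least 3 of the 6 arrays, and 20569 genes were tested in all.

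The tissue was the epithelial sheet of the murine forestomach, whose lining is stratified and squamous. The 3 controls carried K5-CreER, a recombinase that tamoxifen activates in basal cells, where the keratin 5 promoter is active, and the 3 mutants carried K5-CreER with a Sox2 transgene at both Rosa26 alleles (Rosa26Sox2/Sox2). All mice were of a mixed 129/Sv and C57/BL6 background, were given 2 doses of tamoxifen at 7 weeks and were 12 weeks old. On each 2-colour Agilent array the sample was labelled with Cy5 and Universal Mouse Reference RNA, a pool from 11 cell lines, with Cy3, with no dye swap. Values below are the log2 ratio of sample over reference after normalization within each array, and differences are mutant minus control. A value of 0 is a normalized signal equal to that of the reference. An offset of 50, added to both channels, draws the ratio of a dim probe towards 0. The comparison asks whether these defence genes differ in epithelium in which basal cells were made to express Sox2.

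Complement is a cascade of plasma and tissue proteins in which C3 is the central component and factor B, the product of Cfb, forms the convertase of the alternative pathway. Serum amyloid A, lipopolysaccharide-binding protein and haptoglobin are acute-phase proteins, made mainly by the liver but also by epithelia, and their genes are known targets of interleukin 1, interleukin 6, C/EBP factors and NF-kB. Lipocalin 2 withholds iron from bacteria by binding their siderophores, and the polymeric immunoglobulin receptor carries IgA and IgM across mucosal epithelia.

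Several properties of the arrays bear on every value below. Control 3 was the dimmest array, with 62.6% of probes well above background in the sample channel against 73.1% to 76.2% on the others, and its median sample signal was 4.66 times the background against 11.3 to 12.4 times. Controls 1 and 2 differed from each other by a scaled median absolute difference of 0.16, and mutants 2 and 3 by 0.10, against 0.33 to 0.73 for every other pair of arrays. The labels call all of them biological replicates and are silent on pooling of RNA. The p-values measure the spread of these arrays alone, some of which may be technical, and 3 arrays a group limit the precision. Each slide held 1 genotype (controls 1 and 2 on 1 slide, control 3 on another, the mutants together on a further one), so genotype and slide cannot be told apart. In the authors' deposited table of log2 ratios the columns of mutants 1 and 3 matched each other's scanner file. The numbers used here follow the scanner files. All 12 squamous epithelial markers passed the filter, with the keratin genes Krt5, Krt14 and Krt13 well above background on all 6 arrays.

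Both Saa1 probes and the Saa3 and Lcn2 probes are shown because the results turn on where they lie and on how alike the family is. The positions are those of the files' mm9 build and all 4 lie on the minus strand. The first Saa1 probe (A_52_P318673, chr7:53996070-53996129) and the Saa3 probe (A_51_P337308, chr7:53968031-53968090) each lie within 1 exon. The second Saa1 probe (A_51_P361650, chr7:53996167-53996639) and the Lcn2 probe (A_51_P510156, chr2:32241037-32241281) cross an exon junction, since their 60 bases span a longer stretch of the genome.
Saa1, first probe: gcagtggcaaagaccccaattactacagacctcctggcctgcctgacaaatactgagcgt
Saa1, second probe: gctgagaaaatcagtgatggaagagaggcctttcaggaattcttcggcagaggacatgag
Saa3: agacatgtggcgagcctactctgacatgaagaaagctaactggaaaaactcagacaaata
Lcn2: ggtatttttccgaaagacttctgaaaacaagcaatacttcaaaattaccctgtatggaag
No base is in capitals, since no motif was sought in the probes. The files list the Saa3 probe with the accessions of 2 transcripts, that of Saa3 and that of Saa1, so its signal may hold both. The other probes lie at chr17:57343416-57343475 and chr17:57364538-57364695 (C3), chr17:34993502-34993858 (Cfb), chr2:158154142-158157684 (Lbp), chr8:112099172-112099231 (Hp) and chr1:132748041-132748100 (Pigr).

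The 250 bases before the start of C3, Saa3 and Lcn2 are shown because C/EBP factors are known inducers of this class of genes. Cebpd was among the genes whose pattern was most like that of the 8, and was picked by that likeness in these data. Cebpb, another C/EBP factor, went the other way, with a difference of -1.18. The windows are from RefSeq on GRCm38.p6 and read 5′ to 3′ along the gene (minus strand at chr17:57228137-57228386, chr7:46715677-46715926 and chr2:32387740-32387989). Capitals mark matches to the C/EBP motif TTNNGNAA or its reverse complement.
C3: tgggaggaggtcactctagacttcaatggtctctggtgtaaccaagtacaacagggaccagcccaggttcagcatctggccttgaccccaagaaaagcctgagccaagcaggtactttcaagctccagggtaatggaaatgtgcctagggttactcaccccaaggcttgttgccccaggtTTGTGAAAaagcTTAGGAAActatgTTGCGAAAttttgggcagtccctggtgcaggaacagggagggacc
Saa3: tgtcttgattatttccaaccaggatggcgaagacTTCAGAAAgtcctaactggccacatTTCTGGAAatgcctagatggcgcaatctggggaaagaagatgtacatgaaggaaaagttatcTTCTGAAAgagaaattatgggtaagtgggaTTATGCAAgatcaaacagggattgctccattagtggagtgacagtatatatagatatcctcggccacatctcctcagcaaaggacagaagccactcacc
Lcn2: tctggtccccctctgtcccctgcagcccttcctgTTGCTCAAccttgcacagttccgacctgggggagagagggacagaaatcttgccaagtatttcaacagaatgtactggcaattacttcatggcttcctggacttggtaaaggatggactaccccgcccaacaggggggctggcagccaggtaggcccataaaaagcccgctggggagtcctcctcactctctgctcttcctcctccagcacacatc
Of the 5 members with a RefSeq promoter entry (C3, Saa1, Saa3, Lcn2 and Pigr), 4 held at least 1 match in these 250 bases. C3 had 3 matches, at -70 to -63, -58 to -51 and -45 to -38 from the start. Saa3 had 4, Saa1 had 2, Lcn2 had 1 and Pigr had 0. The motif is common: 36.8% of 32851 RefSeq promoters of that length held it. None of the 5 held the STAT motif TTCNNNGAA (7.0% of all promoters) or the NF-kB consensus (7.3%), both searched on both strands. The Saa1 and Saa2 windows were 94.8% identical over their alignment, whereas Saa1 and Saa3 were 48.5% identical. Entries for Cfb, Lbp and Hp were not found.

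Each of the 8 genes had a higher mean log2 ratio in the mutants, as did 50.6% of all genes, and for each the 3 mutant ratios lay above the 3 control ratios on the probe that represents the gene, its brightest. Over all genes tested 19.6% showed that separation. None of the 8 passed the threshold of 0.05 after Benjamini-Hochberg adjustment over all genes in limma's two-sided test. By that test 2.82% of all genes passed (581, of which 287 were higher in the mutants and 294 lower). Of the 8, 5 had an unadjusted p under 0.05 with the mutants higher, a share of 12.1% over all genes. The members' median difference was 1.87, beside a median of 0.01 over all genes, and 7 of the 8 were higher by at least 1 log2 unit, as were 3.93% of all genes. An exact permutation of the 6 arrays gave p = 0.1 for each representative probe, the smallest this design allows.

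**Figure D1:**
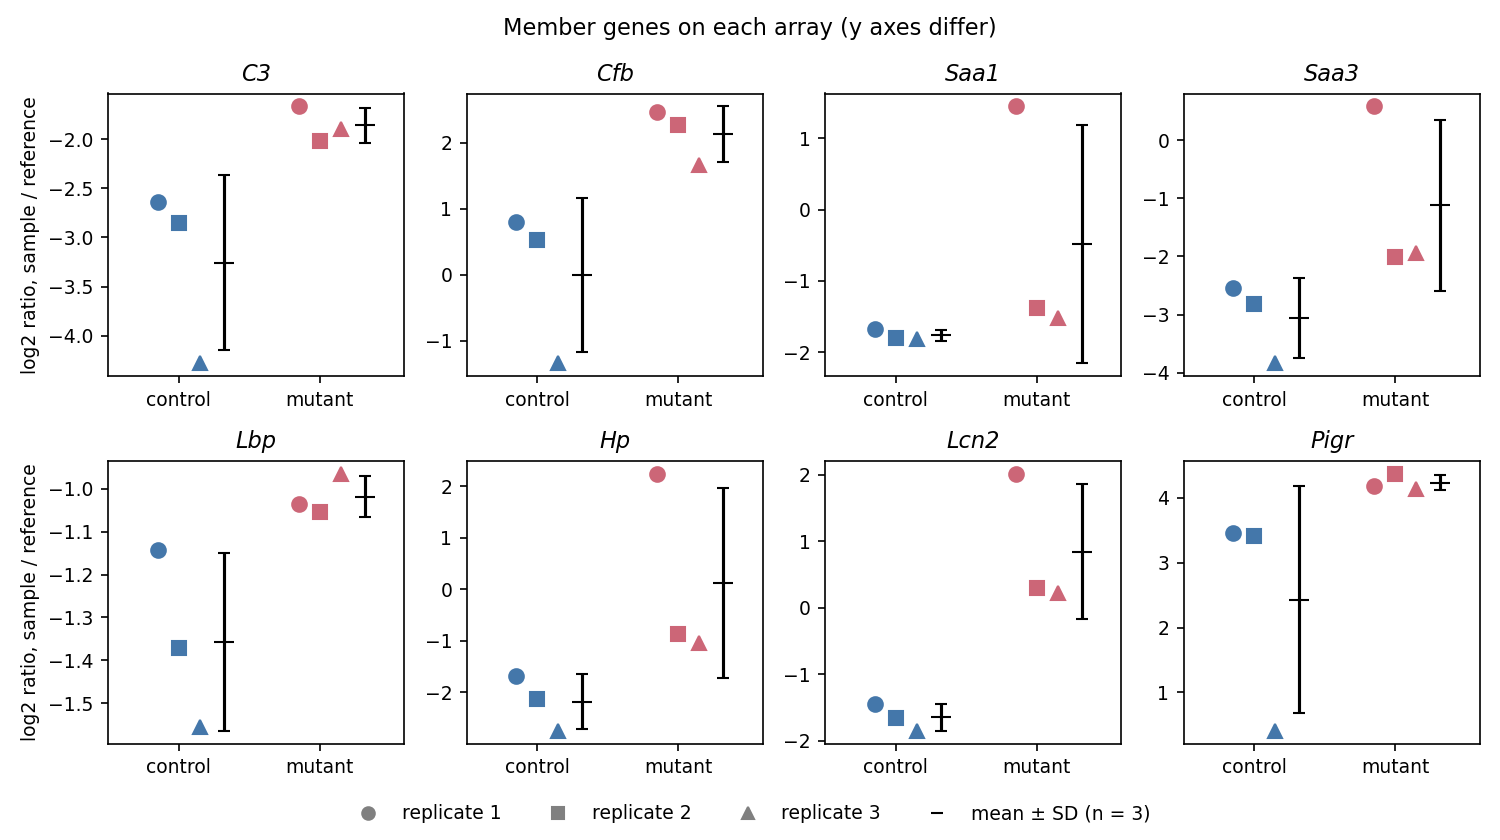
The log2 ratio of sample over reference (y axis, a separate range in each panel) of the 8 member genes on the 3 control (blue) and 3 mutant (red) arrays, with the symbol giving the replicate and the black bar the mean ± SD of a group (n = 3). Mutants lie above controls in every panel. Mutant 1 stands high for Saa1, Saa3, Hp and Lcn2, and control 3 stands low for C3, Cfb and Pigr.

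C3, whose cleavage drives opsonisation and the later steps of the cascade, had log2 ratios of -2.63, -2.85 and -4.28 in controls 1 to 3 and -1.66, -2.02 and -1.89 in mutants 1 to 3. Control 3 was the lowest array and the mutants lay close together, with no overlap of the groups. The means were -3.26 ± 0.90 and -1.86 ± 0.18 (SD, n = 3 each), a difference of 1.40 (SE 0.43, 95% confidence interval 0.36 to 2.44) or 2.64-fold, with an adjusted p of 0.13 in limma. This probe is printed in 10 spots, of which 8 to 10 per array were used, and their SD within an array was 0.03 to 0.06 log2 units, smaller than the distance between controls 1 and 2. The raw sample signal was 40330, 35320 and 4854 in the controls and 70803, 63183 and 75173 in the mutants. The second C3 probe, which crosses an exon junction, gave raw signals of only 92 to 142 and was not well above background on control 3. Its means were -0.85 ± 0.48 in controls and -1.03 ± 0.26 in mutants (SD, n = 3), a difference of -0.18 with overlapping groups (adjusted p of 0.71 over probes in limma, by which 2.72% of probes passed). Without control 3 the difference of this dim probe was 0.10, and 0.07 without control 3 and mutant 1, so its sign rested on an array where it was not well above background.

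Cfb, which encodes the protease of the alternative pathway, had log2 ratios of 0.80, 0.53 and -1.34 in the controls and 2.47, 2.26 and 1.66 in the mutants. Again control 3 was far below the other controls, and all mutants were above all controls. The difference was 2.13 (SE 0.58, 95% confidence interval 0.74 to 3.53), or 4.38-fold, with an adjusted p of 0.11 in limma. The raw signal of Cfb was 122 on control 3, against 870 and 1052 on the other controls and 2486 to 4642 in the mutants.

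Without control 3 the differences of both complement genes were smaller and passed the threshold in limma: C3 by 0.89 (SE 0.14, adjusted p = 0.0347) and Cfb by 1.46 (SE 0.26, adjusted p = 0.0421). That fit called 7.21% of all genes. It leaves the 2 near-identical controls as the control group.

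Among the acute-phase genes, Saa1 and Saa3 encode serum amyloid A proteins, apolipoproteins of the acute phase, of which Saa3 is the form made mainly outside the liver. Saa1 had log2 ratios of -1.68, -1.80 and -1.81 in the controls and 1.45, -1.38 and -1.51 in the mutants. In the ratio mutant 1 stood apart, and mutants 2 and 3 lay just above the controls. In the normalized log2 sample channel the groups overlapped, with 11.0 on control 3 and 9.79 and 9.81 on mutants 2 and 3. The normalized reference channel of this probe was 12.8 on control 3, against 11.2 to 11.4 on the other arrays, although it held the same reference RNA. The difference of Saa1 was 1.28 (SE 0.77, 95% confidence interval -0.59 to 3.15, adjusted p = 0.35 in limma), and without mutant 1 it was 0.31 (SE 0.12, adjusted p = 0.22). The raw signal was 770 to 827 in the controls, 8524 in mutant 1 and 1070 and 1113 in mutants 2 and 3. The second Saa1 probe was dim, with raw signals of 158 to 168 in controls and of 197, 104 and 102 in mutants 1 to 3. Its difference was -0.42 with overlapping groups (adjusted p of 0.37 over probes in limma). Without control 3 the difference of this second probe was -0.31, and without control 3 and mutant 1 it was -0.60. It was well above background on all 6 arrays, so the 2 Saa1 probes went opposite ways. Saa2, the close relative of Saa1, had a difference of -0.40 (SE 0.37, adjusted p = 0.53 in limma).

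Saa3 had log2 ratios of -2.54, -2.81 and -3.84 in the controls and 0.58, -2.01 and -1.94 in the mutants. Here mutant 1 was high and control 3 low, and the remaining arrays of the groups lay close together without overlap. The difference was 1.94 (SE 0.75, 95% confidence interval 0.12 to 3.76), or 3.83-fold, with an adjusted p of 0.19 in limma. Raw signals of Saa3 were 3674, 3088 and 777 in the controls and 35100, 5777 and 6686 in the mutants. Without mutant 1 the difference was 1.09 (SE 0.41), and without mutant 1 and control 3 it was 0.70 (SE 0.11).

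Lbp, whose product hands lipopolysaccharide to CD14, showed the smallest difference of the 8. Its log2 ratios were -1.14, -1.37 and -1.56 in the controls and -1.04, -1.05 and -0.97 in the mutants. The groups did not overlap but came within 0.1 of each other. The difference was 0.34 (SE 0.14, 95% confidence interval -0.00072 to 0.68), or 1.26-fold, with an adjusted p of 0.21 in limma.

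Hp encodes haptoglobin, which binds free haemoglobin and so limits iron and oxidative damage. Its log2 ratios were -1.68, -2.13 and -2.75 in the controls and 2.24, -0.87 and -1.04 in the mutants. Mutant 1 exceeded the other mutants by more than those exceeded the controls. Raw signals were 1070, 789 and 192 in the controls and 25330, 1997 and 1920 in the mutants. The difference was 2.30 (SE 0.89, 95% confidence interval 0.16 to 4.44), or 4.92-fold, with an adjusted p of 0.19 in limma. Without mutant 1 the difference of Hp was 1.23 (SE 0.33, adjusted p = 0.13).

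Of the mucosal defence genes, Lcn2 had the largest difference of the 8 and the smallest p. Its log2 ratios were -1.45, -1.65 and -1.85 in the controls and 2.01, 0.30 and 0.22 in the mutants. The controls were close together, and the lowest mutant lay well above the highest control. The means were -1.65 ± 0.20 and 0.84 ± 1.01 (SD, n = 3 each), a difference of 2.49 (SE 0.49, 95% confidence interval 1.32 to 3.66) or 5.62-fold, with an adjusted p of 0.056 in limma. The raw signal was 494, 447 and 125 in the controls and 10307, 1813 and 1824 in the mutants. Without mutant 1, the array with the highest Lcn2, the difference was smaller but passed the threshold, at 1.91 (SE 0.15, adjusted p = 0.0138 in limma, by which 3% of all genes passed). With control 3 left out as well it was 1.81 (SE 0.09).

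Pigr had log2 ratios of 3.46, 3.41 and 0.41 in the controls and 4.19, 4.37 and 4.14 in the mutants. Controls 1 and 2 were already far above the reference, the mutants were higher and nearly equal, and control 3 was not well above background in either channel. The difference was 1.80 (SE 0.81, 95% confidence interval -0.15 to 3.76), or 3.49-fold, with an adjusted p of 0.24 in limma. Without control 3 it was 0.79 (SE 0.11, adjusted p = 0.0253), or 1.74-fold. The reference channel of this probe was dim, at 48 to 652, and after normalization was itself 3.37-fold higher on the mutant arrays, although it held the same reference RNA. In the sample channel alone the difference of Pigr was 3.56, or 11.8-fold. The raw sample signal was 1345, 1539 and 64 in the controls and 3688, 14436 and 8433 in the mutants, so that mutant 1 was the lowest mutant there.

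The members thus fell into sets by which array set their spread. Saa1, Saa3, Hp and Lcn2 were higher on mutant 1 than on the mean of mutants 2 and 3, by 2.89, 2.56, 3.19 and 1.76 log2 units. Cfb and C3 exceeded it by 0.51 and 0.29, and Lbp and Pigr differed by -0.03 and -0.07. Over all genes 2.95% were at least 1 unit higher on mutant 1. On control 3, Pigr, Cfb, C3 and Saa3 were lower than on the mean of controls 1 and 2, with differences of -3.03, -2.0, -1.54 and -1.16, while Hp was at -0.84, Lcn2 and Lbp were each at -0.30 and Saa1 was at -0.07. Over all genes 8.47% were at least 1 unit lower on control 3. Saa3 was the single member past 1 unit on both arrays.

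**Figure D2:**
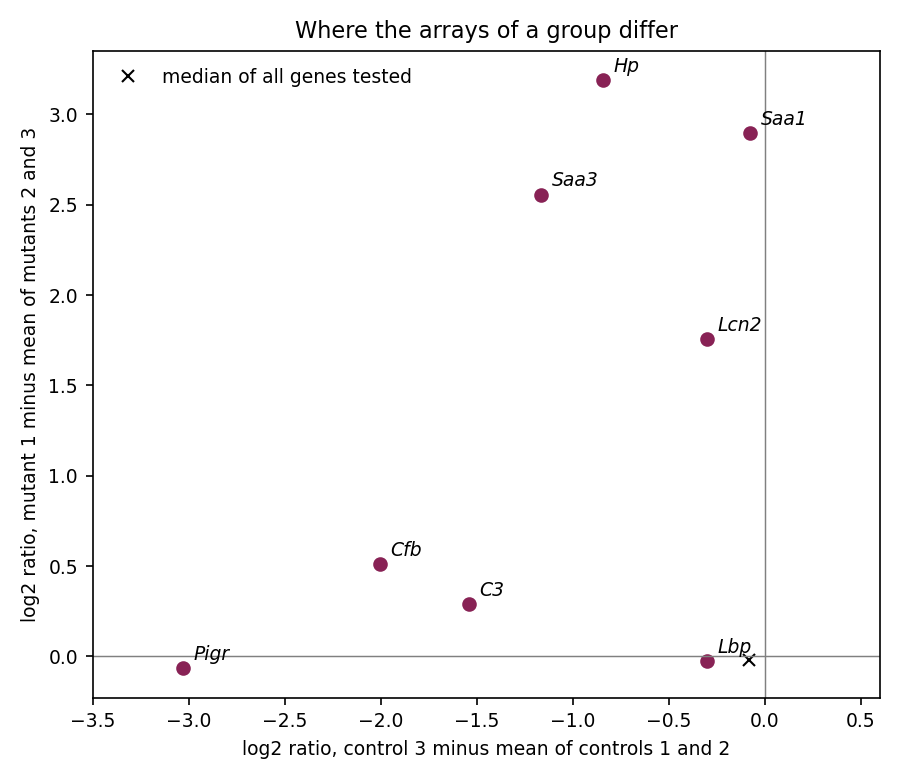
Each point is a member gene, placed by its log2 ratio on control 3 minus the mean of controls 1 and 2 (x axis) and on mutant 1 minus the mean of mutants 2 and 3 (y axis). The cross is the median of all genes tested. Hp, Saa1, Saa3 and Lcn2 lie high, Pigr, Cfb and C3 lie to the left near the horizontal line, and Lbp lies near the cross.

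With both control 3 and mutant 1 left out, 7 of the 8 members passed the threshold in limma, all but Lbp (0.25, SE 0.10, adjusted p = 0.11). The remaining differences ran from 0.29 for Saa1 to 1.81 for Lcn2. For Saa1 this holds for its brightest probe alone, since its second probe was at -0.60 without these arrays. That fit compares 1 near-identical pair of arrays with another, and it called 37.6% of all genes, 17.7% as higher in the mutants. Array weights, which gave little weight to the same arrays, called 6 of the 8 (C3, Cfb, Lbp, Hp, Lcn2 and Pigr) and 39% of all genes.

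**Figure D3:**
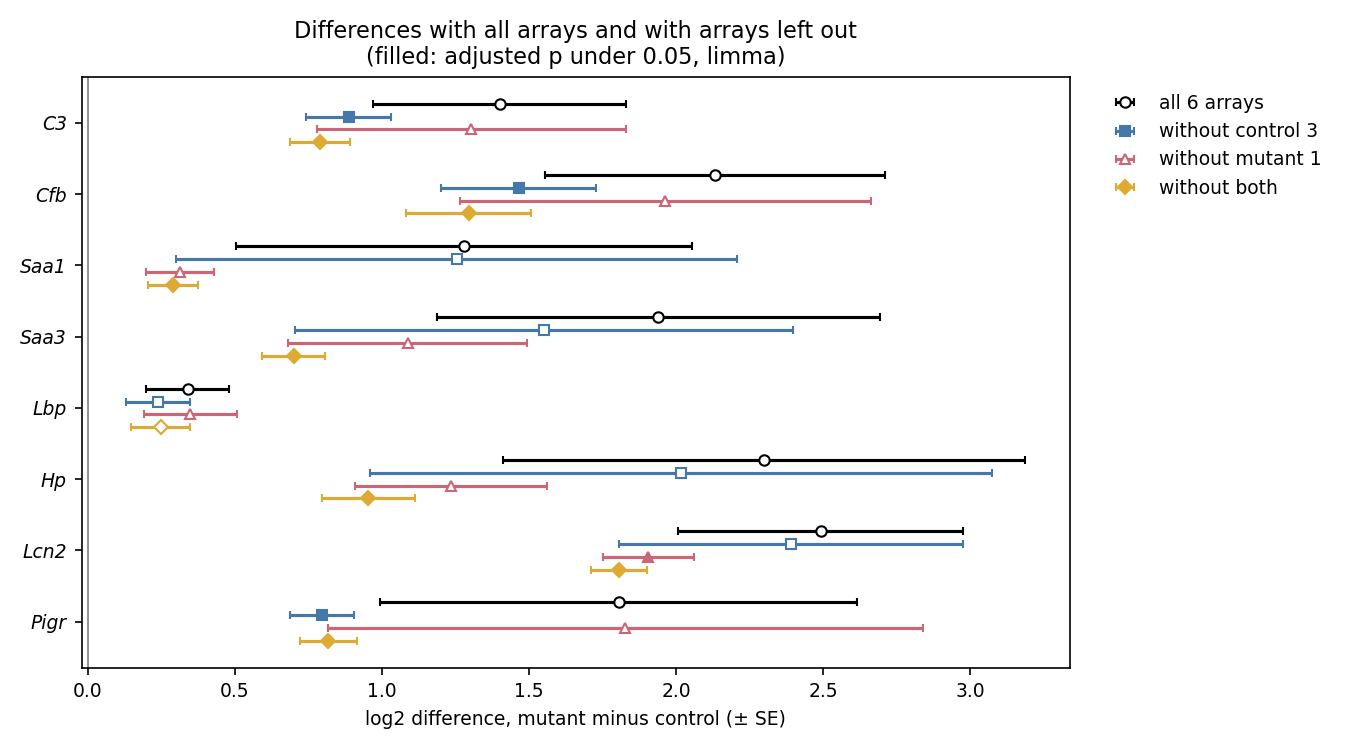
The mutant minus control difference of each member on the log2 scale (x axis) with its SE, for all 6 arrays (black), without control 3 (blue), without mutant 1 (red) and without both (yellow). Filled symbols have an adjusted p under 0.05 in limma. All points lie above 0, and the distance between the colours is greatest for Hp, Saa3, Saa1 and Pigr.

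Marker lists of other cells also differed between the arrays, some higher and some lower in the mutants. The summed sample-channel signal of 10 neutrophil genes was 25724, 37683 and 2744 in controls 1 to 3 and 537435, 82116 and 84645 in mutants 1 to 3. Mutant 1 was the highest array and control 3 the lowest, as for C3, Cfb, Saa3, Hp and Lcn2 in the normalized sample channel. Saa1 was also highest on mutant 1, but not lowest on control 3. Its log2 sample channel was 9.59, 9.40 and 11.0 in controls 1 to 3. On control 3 the lowest of these genes were Ltf, Cxcr2 and Stfa2, at -4.72, -1.96 and -1.55 log2 units relative to controls 1 and 2, while the list's median there was -0.11. Of the 10, 2 passed the threshold in limma (Retnlg, a resistin-like gene of neutrophils, and Fpr1, the formyl peptide receptor). Over all genes 1.4% passed as higher in the mutants. Retnlg, Fpr1, Mmp8, Ngp and Csf3r were well above background on no control array and on all 3 mutant arrays, and so entered the test through the mutants alone, while Elane, the gene of neutrophil elastase, was so on no array. Retnlg passed with each array left out in turn (adjusted p of 0.00208 to 0.0482 in limma), and Fpr1 missed the threshold without control 1, control 2, mutant 2 or mutant 3 (adjusted p of 0.10 to 0.15). Neutrophils store lipocalin 2 and haptoglobin, and the part of such cells in the members' differences was not tested. In bulk samples a change in the number of cells of a type and a change in RNA per cell cannot be told apart.

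Summed macrophage markers (11 genes) ranged from 30436 to 34539 in the controls and from 50459 to 67620 in the mutants, and 2 of the 11 rose in limma, Cd68 by 1.49 and Csf1r by 0.75. Cd68 missed the threshold without control 1, control 2, mutant 2 or mutant 3 (differences of 1.39 to 1.54). So did Csf1r, which also missed it without mutant 1 (0.65 to 0.81). As the mean of all its probes Csf1r differed by 0.45. Plasma and B cell markers (9 genes) ranged from 34759 to 46949 and from 65809 to 78864, and none passed. Hepatocyte markers (8 genes) summed to 4320 to 10293 in the controls and 1412 to 3232 in the mutants, with a median difference of -0.25 over the list. Of these, Ahsg, the gene of the liver protein fetuin A, fell by 1.95 in limma, a call that was missed without mutant 2 (-2.01) or mutant 3 (-1.90), and the groups overlapped for the other 7. Fgb and Cyp2e1 were well above background on no array.

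Glandular stomach markers (14 genes) summed to 1943732 and 1817108 in controls 1 and 2, 6652 in control 3 and 313926 to 1277792 in the mutants. On control 3 their median was -3.12 relative to controls 1 and 2, a shift in the direction of that of Pigr (-3.03). Columnar gastric epithelium is known to express Pigr. On mutant 1 the glandular sum was 313926, against 1277792 and 902712 on mutants 2 and 3. The Pigr ratio differed there by only -0.07, but its log2 sample channel was 11.7 against 13.5 and 12.7. All mutant sums were below those of controls 1 and 2, whereas Pigr was higher in the mutants. The part of glandular cells in the Pigr difference was not tested. Mesenchymal markers (11 genes) were also lowest on control 3, at 140238 against 407570 to 706244 on the other arrays, and adipocyte markers (6 genes) ranged from 389826 to 1155281 in controls and from 271976 to 538482 in mutants, with Adipoq and Lep well above background on no array. Summed squamous markers (12 genes) were highest on control 3, at 3980807 against 2289865 to 2684648 on the others. Gene by gene the squamous list leaned lower in the mutants, with a median difference of -0.57 beside 0.01 over all genes. Of the 12, 2 had a positive difference, as did 50.6% of all genes, and 0 passed in limma. Control 3 also differed from the other controls in slide and scan day. Whether these or the tissue shares set its low C3, Cfb and Pigr was not tested.

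**Figure D4:**
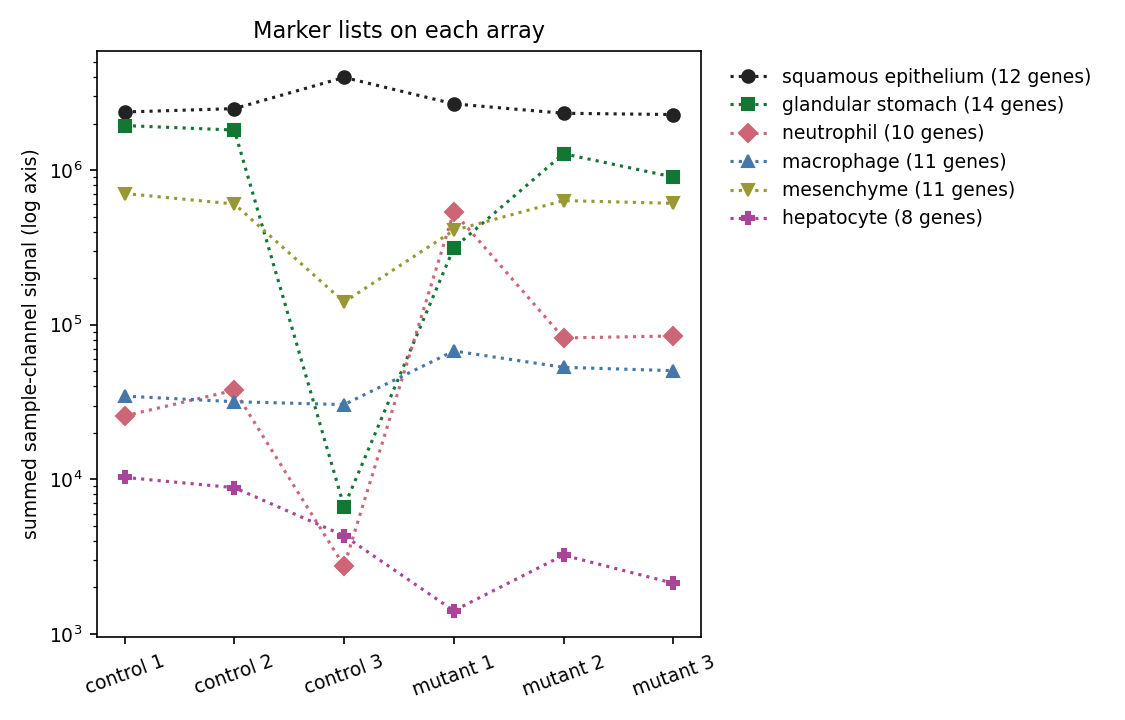
The summed sample-channel signal (y axis, log scale) of 6 marker lists on each array, with dotted lines to guide the eye. Neutrophil markers run from 2744 on control 3 to 537435 on mutant 1, and glandular markers fall to 6652 on control 3. The squamous sum lies between 2289865 and 3980807.

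Related genes were taken from lists of the pathways of the 8 members. The lists share some genes with the marker lists: C1qa, C1qb and C1qc of complement are macrophage markers, Camp and Ltf of the antimicrobial list are neutrophil markers, and the immunoglobulin genes are plasma cell markers. Over all genes 1.4% rose in limma and 50.6% had a positive difference, the shares beside which the counts of all these lists stand. Of 19 other complement components and activators, 2 rose and 0 fell in limma, with a median difference of 0.44 and 14 positive. C4b, a component of the classical and lectin pathways, rose by 1.63 (SE 0.25, adjusted p = 0.032). Masp2, the protease of the lectin pathway, rose by 0.92 (SE 0.15, adjusted p = 0.037) on its brightest probe. As the mean of all its probes Masp2 differed by 0.62, and 1 of the 19 genes rose in that fit. C4b shares much of its sequence with C4a, so the signal may hold both. Among 19 regulators and receptors of complement 1 rose and 0 fell, with a median of 0.24 that was -0.02 without control 3. The gene that rose was C5ar2, the second receptor of C5a, by 0.83 (SE 0.13, adjusted p = 0.037). Vsig4, a macrophage receptor of C3 fragments, was well above background on no control array and on all mutant arrays (adjusted p = 0.075).

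Of 19 other acute-phase genes, 3 rose and 0 fell, with a median difference of 0.28. Serpina3n, a mouse counterpart of antichymotrypsin, had log2 ratios of 0.03, 0.01 and -0.14 in the controls and 3.04, 2.66 and 2.45 in the mutants. The groups were far apart, and the mutants lay closer together than those of Saa1, Saa3 and Hp. The difference was 2.74 (SE 0.18, adjusted p = 0.0037 in limma), or 6.70-fold. Its probe was well above background on 2 of the 3 controls, and in the sample channel alone the difference was 4.64. Serpina3m, a neighbour in the same cluster of near-identical genes, rose by 3.34 (SE 0.35, adjusted p = 0.013), and probes of that cluster may share signal. Lrg1, a secreted leucine-rich glycoprotein, rose by 2.13 (SE 0.32, adjusted p = 0.031).

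Genes that sense lipopolysaccharide, the ligand of the Lbp product, showed a median difference of 0.04 over 16 tested, and 0 passed in limma. The smallest p belonged to Cd14, the receptor to which the Lbp product delivers its ligand, at 0.85 (SE 0.18, adjusted p = 0.064), and to the adaptor gene Tirap, at 0.81 (SE 0.18, adjusted p = 0.076). Among 26 other mucosal antimicrobial genes 2 rose and 0 fell, with 20 positive and a median of 0.66. These were Lpo, the gene of lactoperoxidase, by 1.98 (SE 0.27, adjusted p = 0.025), and Wfdc18, a whey acidic protein gene, by 2.59 (SE 0.45, adjusted p = 0.045). The Wfdc18 probe was well above background on 2 of the 3 controls, and its difference in the sample channel alone was 3.99. Without control 3 the median was 0.34 and 5 rose, in a fit that called 7.21% of all genes in either direction.

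In the handling of haem, haptoglobin and siderophores, 1 of 16 genes rose, with a median of 0.27. Tfrc, the transferrin receptor, rose by 1.36 (SE 0.17, adjusted p = 0.021), and Slc11a1, an iron transporter of phagocytes, differed by 0.37 (adjusted p = 0.13). The receptors of the members' products, chosen for that role, did not pass: Cd163, the haptoglobin receptor of macrophages, differed by 1.48 (SE 0.59, adjusted p = 0.20) and Slc22a17, a lipocalin 2 receptor, by 0.37 (SE 0.19, adjusted p = 0.30). Of 10 partners of Pigr in immunoglobulin transport 0 passed, with a median of 0.31. Igha, the heavy chain of the IgA that Pigr carries, had log2 ratios of 2.89, 2.69 and -0.53 in the controls and 3.92, 4.15 and 3.87 in the mutants, low on control 3 as Pigr was. Its difference was 2.29 (SE 0.89, adjusted p = 0.19 in limma), and 1.19 (adjusted p = 0.0166) without control 3. Ighm, the heavy chain of IgM, had a difference of -0.77 (SE 0.21, adjusted p = 0.11 in limma), which was 0.03 as the mean of all its probes.

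Of 23 cytokines and transcription factors known to induce this class of genes, 1 rose and 0 fell, with 18 positive and a median of 0.43. Il1b, the gene of interleukin 1 beta, had log2 ratios of -1.06, -1.18 and -0.73 in the controls and 3.12, 1.61 and 1.51 in the mutants. Mutant 1 was again the highest array, but every mutant was more than 2 units above every control. The difference was 3.07 (SE 0.44, adjusted p = 0.028 in limma), or 8.38-fold. Cebpb, a C/EBP factor of the acute phase, had a difference of -1.18 (SE 0.25, adjusted p = 0.064). Its difference was negative under all 25 alternatives. Without control 3 it was -0.91 (SE 0.12, adjusted p = 0.0224 in limma), in the fit that called 7.21% of all genes.

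Of the 10 genes of these lists that rose, Serpina3n alone passed with each of the 6 arrays left out in turn (adjusted p of 0.00503 to 0.0364 in limma). C5ar2, Il1b, Lpo, Serpina3m and Tfrc missed the threshold when any of controls 1 and 2 and mutants 2 and 3 was left out, and C4b, Lrg1, Masp2 and Wfdc18 also when mutant 1 was. Their differences then ran from 0.81 to 0.91 for C5ar2, 2.97 to 3.35 for Il1b, 2.04 to 2.19 for Lpo, 3.25 to 3.57 for Serpina3m and 1.26 to 1.37 for Tfrc. They ran from 1.53 to 1.77 for C4b, 2.04 to 2.32 for Lrg1, 0.82 to 0.98 for Masp2 and 2.54 to 2.98 for Wfdc18. Each kept its direction. None of the 10 passed in limma with slide as a random block (4 genes called in all) or with the near-identical arrays averaged (0 called). Without 1 of controls 1 and 2 or mutants 2 and 3, fits called 34 to 57 genes in all.

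**Figure D5:**
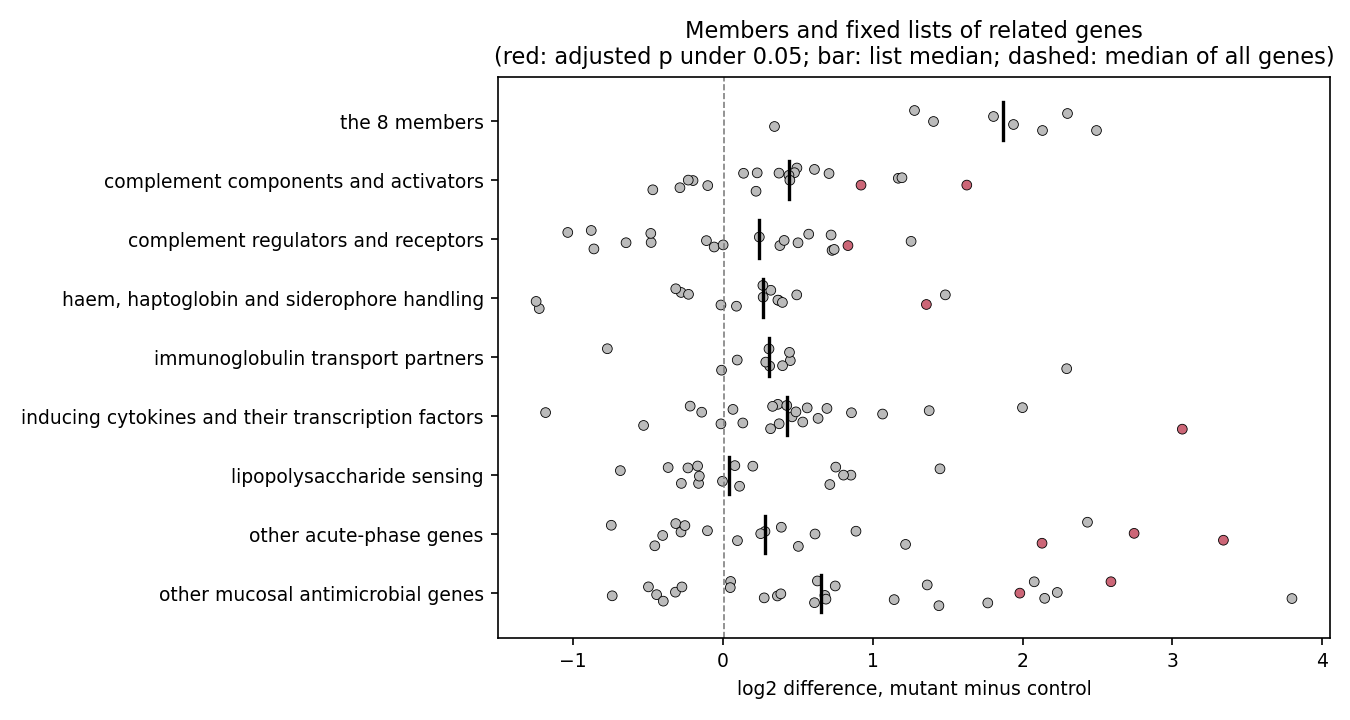
Mutant minus control differences on the log2 scale (x axis) of the 8 members and of the genes tested in 8 lists of related genes (rows). Red points have an adjusted p under 0.05 in limma, the black bar is the median of a row and the dashed line the median of all genes. The members' median is 1.87, and the list medians lie between 0.04 and 0.66.

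The mean profile of the 8 members, each centred on its own mean, was -0.36, -0.58 and -1.63 in controls 1 to 3 and 1.78, 0.45 and 0.33 in mutants 1 to 3. Among 15903 other genes compared over the 6 arrays, 110 had a Pearson correlation with it above 0.99. The 5 highest were Tlr2, a receptor of bacterial lipoproteins, Tmem268, Fcgr3, an IgG receptor of phagocytes, Cebpd, a C/EBP factor of the acute phase, and Dhh, the ligand desert hedgehog, with r from 0.998 to 1.000. These points share the 6 arrays and include 2 near-identical pairs, so the correlation describes a shape. Tlr2 had log2 ratios of -2.18, -2.42 and -3.34 in the controls and -0.41, -1.52 and -1.66 in the mutants, and Cebpd had -1.88, -2.15 and -3.54 in the controls and 0.67, -1.09 and -1.15 in the mutants. Both genes were highest on mutant 1 and lowest on control 3, a shape that their selection by this correlation fixed. Their differences were 1.45 (SE 0.44) for Tlr2 and 2.00 (SE 0.63) for Cebpd, and none of the 5 passed the threshold in limma (adjusted p of 0.12 to 0.14).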

How the data were processed

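The values came from 6 scanner files of 2-colour arrays. Spot intensity was deposited unaltered from the scanner software, Agilent Feature Extraction 10.5.1.1 (10.7.3.1 for control 3) per the file headers and 9.1 per the submitters' processing notes. The scanner's own log10 ratios of processed red over green, per the file headers, were read but enter no result. The authors also deposited log2 ratios, which ran as sample over reference with slopes of 1.11 to 1.17 on the scanner ratios and column medians of 0.026 to 0.06. Their normalization and centring are not given in the sources used, and they served as an alternative.

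Signals were corrected with normexp (offset 50) and loess in limma 3.58.1 (R 4.3.3). Control spots had weight 0, and control and outlier spots were then left out. Spots of a probe were averaged. The probe with the brightest mean sample channel stood for a gene (7062 of 20569 genes had several). Of the probes, 79.4% were named through RefSeq (GRCm38.p6), 272 had no name and the rest kept the files' name. The groups, taken from the labels, were compared with lmFit and eBayes on all 20569 genes, with 4 residual degrees of freedom, and second probes in a fit over 30869 probes. Summed marker signals are linear sample-channel values after loess and Aquantile. The fit was tested on simulated data.

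The members and lists were chosen with earlier results of these data known. Named were all members and probes and, of each list, up to 6 called genes by p, or the 2 smallest p where fewer than 2 passed, and the 5 genes most like the members. Cd163, Slc22a17 and Saa2 were added for their role, and the neutrophil, hepatocyte and adipocyte genes beyond 3 a list for their detection, after their values were seen. Alternatives covered background, normalization, filter, probe choice, blocks, array weights and left-out arrays. Their use on the lists was added after seeing the data.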

Additional observations from a re-analysis of the deposited data

How the results depend on the processing

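All 199 values of the 8 members under 25 alternatives were positive, on the brightest probe or the mean of a gene's probes. The second C3 and Saa1 probes alone were at -0.18 and -0.42 in the fit of all 6 arrays. Of the 199, 179 stayed on their side of the threshold and 20 newly passed it. All 20 came from fits that left out, set aside or gave little weight to control 3, mutant 1 or both. The ranges were 0.61 to 1.71 for C3 (lowest as the mean of both probes), 1.29 to 2.55 for Cfb, 0.29 to 1.79 for Saa1, 0.70 to 2.56 for Saa3, 0.14 to 0.45 for Lbp, 0.95 to 2.97 for Hp, 1.81 to 2.88 for Lcn2 and 0.79 to 3.56 for Pigr. Pigr was not tested where all 6 arrays had to be well above background. The number of members called in limma was 0 in most fits, 3 with scan day as a block (a fit that sets control 3 aside), 0 to 3 with 1 array left out, 6 with array weights (control 3 weighed 0.10 and mutant 1 0.19, mutants 2 and 3 3.52 and 4.17) and 7 without control 3 and mutant 1. The number called over the whole table moved more: 325 from the scanner's processed signals, 268 with median centring, 306 and 347 from the sample channel (quantile, Aquantile), 4 with slide as a random block, 1483 with scan day, 8014 with array weights, 7730 without control 3 and mutant 1, and 34 to 1483 with 1 array left out. With the near-identical arrays averaged limma called 0 (2196 at an unadjusted p under 0.05). With the replicate number as a block it called 137 genes and 0 members. Same-numbered arrays deviated together little (correlations of 0.0047, 0.019 and 0.13). With 3 arrays a group, and mutants 1 and 3 exchanged between the 2 sources, these correlations cannot decide whether the numbers mark a pairing. Ighm turned from -0.77 to 0.029 as the mean of its probes. The cause of these moves was not tested. Signal over background limits control 3, the second C3 and Saa1 probes, Pigr, Serpina3n and Wfdc18. The last pair, like Pigr, was not tested where all 6 arrays had to be well above background.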
